A study of Mus musculus with 4 samples.

Results

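The 30 genes described here make, take up, store and export cholesterol. They were chosen by name from the pathway, with earlier results of these data known. Every array probe that the deposited files name for one of them was taken, with Msmo1 listed under its older symbol Sc4mol. All 30 genes were found, with 57 probes among the 41174 probes and 27617 gene names of the array. They were divided into 17 enzymes of cholesterol synthesis, 4 genes that control the SREBP transcription factors, 3 genes of uptake and transfer, and 6 genes of efflux and esterification. White adipose tissue came from female C57BL/6 mice that carried no stated allele and were fed a high fat diet (HFD, the product High fat diet 32) or kept on a low fat diet (LFD, the standard chow CE2) for 18 weeks from 8 weeks of age. Each diet had 2 one-colour arrays, on which the brightness of a spot stands for the level of a transcript, and each sample was tissue mixed from 3 mice. The labels name no fat depot and do not say whether the 2 samples of a diet came from separate pools, so a p-value here compares the diets with a spread between samples that could be purely technical.

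Cells make cholesterol from acetyl-CoA through mevalonate and squalene. When sterols are scarce in the endoplasmic reticulum, Scap carries SREBP-2, the product of Srebf2, to the Golgi, where it is cut and released to switch on the synthesis genes and receptor genes; when sterols are plentiful, the Insig proteins hold Scap back. Surplus cholesterol is esterified by Soat1 for storage in droplets or exported by transporters such as Abca1 and Abcg1, which are targets of the oxysterol-sensing LXR receptors. Fat cells hold much free cholesterol at the surface of their lipid droplet and make little of it themselves, whereas macrophages that take up lipid store and export it.

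Levels are given as log2 of the spot signal relative to the 75th percentile of the array, so that 0 is the signal of that percentile. A gene was represented by its brightest tested probe, and probes had to stand well above background on each array of 1 diet or the other to be tested. The diets were compared in limma across 26054 such probes, with p-values adjusted over all of them by the Benjamini-Hochberg method, and a gene was called at an adjusted p under 0.05. All 30 genes were tested through 54 of their 57 probes. Between 21312 and 27248 probes were well above background on the HFD arrays and between 26419 and 27936 on the LFD arrays, HFD replicate 2 having the fewest and the brightest negative control spots. All 10 adipocyte markers examined, among them Retn and Slc2a4, were well above background on every array. Of 17736 genes, 1019 (5.75%) were called higher and 995 (5.61%) lower in HFD, and the median log2 change was 0.02.

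Genes of cholesterol efflux and esterification were higher in HFD in 4 of 6 cases, against 5.75% of all tested genes. None of the 6 was called lower by limma or had an unadjusted p under 0.05 in that direction. As the list was chosen with earlier results of these data known, its excess over the 5.75% is no independent support. Abcg1, Nceh1, Soat1 and Pltp rose between 2.77- and 4.43-fold, whereas Abca1 and Lcat were not called. The median log2 change of the list was 1.53, against 0.02 for all tested genes. Both HFD arrays lay above both LFD arrays for 5 of the 6 genes, as they did for 36.2% of all tested genes. In a tissue sample of many cells, a different share of a cell type and a different amount of RNA per cell cannot be told apart.

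**Figure D1:**
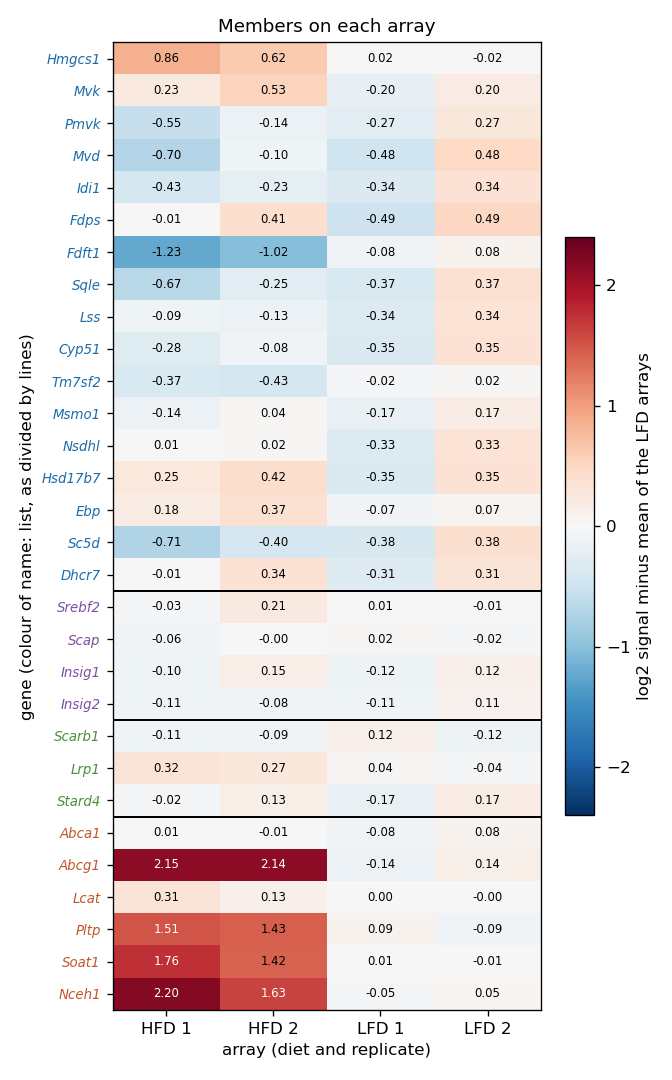
Log2 signal of the 30 genes on each of the 4 arrays, shown as the difference from the mean of the 2 LFD arrays, with red for higher and blue for lower. Lines divide synthesis, SREBP control, uptake and transfer, and efflux and esterification, from the top. Abcg1, Pltp, Soat1 and Nceh1 are red on both HFD arrays, Fdft1 is blue on both, and most synthesis genes differ between the 2 LFD arrays.

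Abcg1, a transporter that moves cholesterol from cells to high-density lipoprotein, had a log2 signal of 2.97 and 2.96 on the HFD arrays, against 0.68 and 0.96 on the LFD arrays. The HFD arrays nearly coincided and stood far above both LFD arrays. The log2 change was 2.15 (SE 0.13), or 4.43-fold, with an adjusted p of 0.0137 in limma. Abcg1 was measured by 1 probe, at chr17:31252580-31252639 of the build mm9.

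Nceh1, which hydrolyses cholesteryl esters in macrophages and so frees cholesterol for export, had 2.74 and 2.17 on the HFD arrays, against 0.48 and 0.59 on the LFD arrays. Its HFD arrays differed more from each other than those of the other genes of the list, yet both lay above LFD. The log2 change was 1.91 (SE 0.22), or 3.76-fold, with an adjusted p of 0.0239 (probe at chr3:27143709-27143768, mm9). Soat1, which esterifies cholesterol in the endoplasmic reticulum and so acts in the opposite direction, had 1.89 and 1.55 on the HFD arrays, against 0.14 and 0.12 on the LFD arrays. The groups did not overlap, and the log2 change was 1.59 (SE 0.15), or 3.00-fold, with an adjusted p of 0.0181 (probe at chr1:158359977-158360036, mm9). Soat1, for making cholesteryl esters, and Nceh1, for cleaving them, were thus both higher in HFD. The other 2 Soat1 probes also rose, by 1.38 (adjusted p = 0.0237) and 0.84 (adjusted p = 0.0374) on the log2 scale, so that all 3 probes of the gene passed the threshold.

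Pltp, the phospholipid transfer protein that remodels lipoproteins in plasma, had 2.55 and 2.47 on the HFD arrays, against 1.13 and 0.95 on the LFD arrays. The replicates of each diet lay close together and the diets were well apart. The log2 change was 1.47 (SE 0.11), or 2.77-fold, with an adjusted p of 0.0154. The files place its 60-base probe over chr2:164666010-164669966 of mm9 on the minus strand, a stretch longer than the probe, as for a probe that crosses a junction between exons. It is shown because Pltp rests on this probe alone.
Pltp probe: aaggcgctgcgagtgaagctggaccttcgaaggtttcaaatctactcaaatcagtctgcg

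Abca1, which loads cholesterol onto lipid-poor apolipoprotein A-I, had 3.13 and 3.11 on the HFD arrays, against 3.04 and 3.20 on the LFD arrays. The HFD values lay between the LFD values. The log2 change was 0.00 (SE 0.10), with a 95% confidence interval from -0.28 to 0.29, before any adjustment for the number of genes; the whole of it lay below the interval of Abcg1, from 1.79 to 2.50. The difference between the changes of these transporters was not itself tested. Abca1 was measured by 1 probe, at chr4:53043944-53044003 of mm9. Lcat, the plasma enzyme that esterifies cholesterol on lipoproteins and is made mainly by the liver, had a low signal of -3.09 and -3.28 on the HFD arrays, against -3.40 and -3.41 on the LFD arrays. HFD lay above LFD by 0.22 (SE 0.11, adjusted p = 0.234), but the probe was well above background on only 1 of 2 HFD arrays.

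With an array left out, calls were lost among these 4 genes, and most calls over all tested genes were lost too. Such a fit leaves that diet with a single array. The log2 changes moved little, with a list median of 1.42 to 1.63 over the 4 fits that left out an array. Macrophage markers, also listed with earlier results of these data known, rose with these genes. Of 14, 11 were called higher and none lower, against 5.75% and 5.61% of all tested genes. The smallest p-values were those of Itgax, which encodes CD11c (8.24-fold at its brighter probe, its dimmer one having the other sign), and Cd68, a lysosomal glycoprotein (4.87-fold). Their summed signal was 425 and 431 on the HFD arrays, against 222 and 199 on the LFD arrays, in units of the 75th percentile, and every marker was well above background. The part of macrophages in the rise of Abcg1, Nceh1, Soat1 and Pltp was not tested.

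The upstream sequences of Soat1, Nceh1 and Pltp, from RefSeq on the build GRCm38.p6, are shown because these genes moved together. Each is the 250 bases before the annotated start, 5′ to 3′ on the strand of the gene, and the capitals mark a CCAAT box (CCAAT, or ATTGG on the other strand) or an E-box (CACGTG). They lie at chr1:156474329-156474578, minus strand, for Soat1, chr3:27182754-27183003, plus strand, for Nceh1, and chr2:164857709-164857958, minus strand, for Pltp.
Soat1: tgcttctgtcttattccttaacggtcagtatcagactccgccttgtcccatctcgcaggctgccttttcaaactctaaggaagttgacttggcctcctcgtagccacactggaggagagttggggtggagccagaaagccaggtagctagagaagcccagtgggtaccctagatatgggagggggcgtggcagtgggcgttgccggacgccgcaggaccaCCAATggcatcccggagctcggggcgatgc
Nceh1: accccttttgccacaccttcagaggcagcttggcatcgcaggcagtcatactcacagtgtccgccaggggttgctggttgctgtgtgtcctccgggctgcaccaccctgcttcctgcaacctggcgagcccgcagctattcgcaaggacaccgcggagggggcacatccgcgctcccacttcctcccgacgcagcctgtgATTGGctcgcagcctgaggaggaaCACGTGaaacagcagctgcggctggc
Pltp: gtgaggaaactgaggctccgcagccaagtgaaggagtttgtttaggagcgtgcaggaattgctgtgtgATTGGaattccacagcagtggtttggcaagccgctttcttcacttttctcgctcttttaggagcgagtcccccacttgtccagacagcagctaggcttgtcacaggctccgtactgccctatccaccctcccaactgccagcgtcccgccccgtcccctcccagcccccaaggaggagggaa
Each held 1 CCAAT box, and Nceh1 also held 1 E-box. The DR4 element, to which LXR binds, was searched on both strands as AGGTCA repeated with any 4 bases between. It occurs before 0.0148% of all genes in the table. It was found before none of the 5 genes of the list that have an entry, nor before any other member that has one. Abcg1 has no entry and was not searched. The absence says only that these letters are not in these windows.

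**Figure D2:**
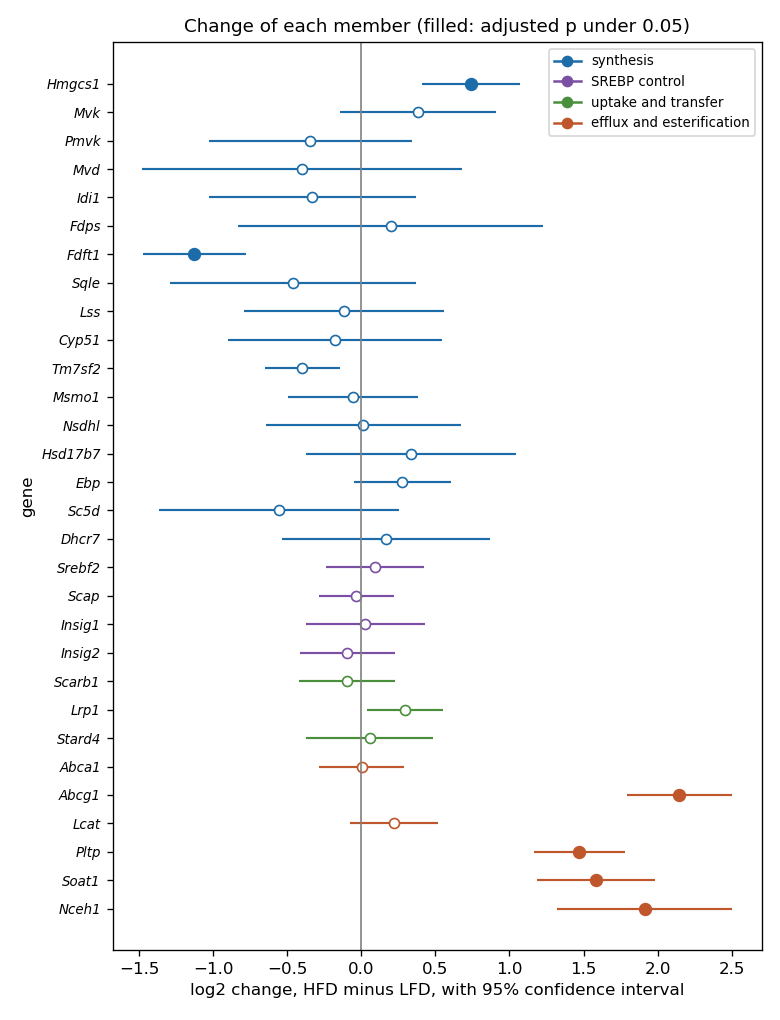
Log2 change, HFD minus LFD, of each of the 30 genes with its 95% confidence interval from limma, before adjustment for the number of genes. Filled points have an adjusted p under 0.05: Hmgcs1, Abcg1, Pltp, Soat1 and Nceh1 to the right of 0, and Fdft1 to the left.

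Genes of cholesterol uptake and transfer showed no call in HFD. Of 3 genes, 0 were higher and 0 lower in limma, against 5.75% and 5.61% of all genes, and 1 had an unadjusted p under 0.05, as had 3230 higher and 2958 lower of all 17736 genes. So few genes cannot be set apart from that background. That gene was Lrp1, a large endocytic receptor for apolipoprotein E-rich particles, with 4.01 and 3.97 on the HFD arrays, against 3.73 and 3.66 on the LFD arrays. Both HFD values were above both LFD values, by a log2 change of 0.29 (SE 0.09, adjusted p = 0.119). Scarb1, the receptor for high-density lipoprotein that also passes cholesterol outwards, had 2.84 and 2.86 on the HFD arrays, against 3.07 and 2.84 on the LFD arrays. Its diets overlapped, and the 95% confidence interval of the log2 change ran from -0.42 to 0.23. Stard4, a soluble sterol carrier and itself a target of SREBP-2, had 0.35 and 0.50 on the HFD arrays, against 0.20 and 0.55 on the LFD arrays. Here too the diets overlapped (log2 change 0.06, SE 0.16). A dimmer Stard4 probe, well above background on only 1 of 2 HFD arrays, had a change of 0.56 (SE 0.16, adjusted p = 0.0962).

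The genes that set the activity of SREBP-2 had small differences between the diets. None of the 4 was called, beside 5.75% higher and 5.61% lower among all tested genes. For calls, 4 genes are too few to be set apart from that background. None had an unadjusted p under 0.05 in limma, whereas 3230 higher and 2958 lower of all 17736 genes had. The diets overlapped for all 4 at their brightest probe, whereas they did not overlap for 68.9% of all tested genes. A dimmer probe did not overlap for 3 of them, with a log2 change of -0.20 for Srebf2, 0.11 for Insig1 and -0.22 for Insig2, none of them called. Srebf2 had 2.57 and 2.81 on the HFD arrays, against 2.60 and 2.59 on the LFD arrays. Scap, its escort, had 2.97 and 3.03 on the HFD arrays, against 3.05 and 3.01 on the LFD arrays. The diets overlapped in both, and for Srebf2 they differed by less than the 2 HFD arrays did, though by more than the LFD arrays. Insig1, which retains Scap and is itself switched on by SREBPs, had 1.42 and 1.67 on the HFD arrays, against 1.40 and 1.63 on the LFD arrays. Insig2, its relative, had 2.36 and 2.39 on the HFD arrays, against 2.35 and 2.58 on the LFD arrays. For both, the 2 LFD arrays differed more from each other than the diets did. The 95% confidence intervals of the log2 change ran from -0.24 to 0.42 for Srebf2, -0.29 to 0.22 for Scap, -0.38 to 0.43 for Insig1 and -0.42 to 0.23 for Insig2. Changes larger than these are outside the intervals, and smaller ones were not detectable with 2 arrays per diet.

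Of the 17 synthesis enzymes, 1 was called higher and 1 lower in HFD, and 15 were not called. Both calls fell in the early steps of the pathway, up to squalene: Hmgcs1, which makes HMG-CoA, rose 1.67-fold, and Fdft1, which joins farnesyl units into squalene, fell 2.18-fold. The shares of 1 in 17 stand beside 5.75% higher and 5.61% lower among all genes and are near that background. The median log2 change of the list was -0.11. Both HFD arrays lay above both LFD arrays for 3 enzymes and below them for 3, against 36.2% and 32.7% of all tested genes, and the diets overlapped for 11.

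Hmgcs1 had 5.26 and 5.02 on the HFD arrays, against 4.42 and 4.38 on the LFD arrays. The diets were separate, with a log2 change of 0.74 (SE 0.12, adjusted p = 0.0397). Its probe lies at chr13_random:114807-114866 of mm9, a part of the assembly not placed within its chromosome. A second, dimmer probe had a similar change of 0.71 (SE 0.19, adjusted p = 0.0884), and the dimmest, drawn from another transcript record, had -0.04 (SE 0.17, adjusted p = 0.882). The call was lost when scaling by the median (adjusted p = 0.0531) and with the mean of the 3 probes (log2 change 0.47, adjusted p = 0.123). Without any 1 array the change was between 0.62 and 0.86, and the call was lost, as were most calls over all tested genes.

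Fdft1 had 1.01 and 1.22 on the HFD arrays, against 2.17 and 2.32 on the LFD arrays. Both HFD values were below both LFD values, by a log2 change of -1.13 (SE 0.13, adjusted p = 0.0234). Its other probe was not well above background on any of the 4 arrays and was not tested. Without any 1 array the change was between -1.23 and -1.02, and the call was lost, as were most calls over all tested genes. The measured probe of 60 bases is likewise placed over a longer stretch, chr14:63765769-63770009 of mm9 on the minus strand, and is shown because it alone carries the only call of a lower level among the members.
Fdft1 probe: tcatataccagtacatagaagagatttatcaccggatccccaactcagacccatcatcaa

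The other 5 enzymes of the mevalonate steps were not called, beside 11.4% of all tested genes called in either direction. Mvk, the mevalonate kinase, had 0.23 and 0.53 on the HFD arrays, against -0.20 and 0.20 on the LFD arrays, both HFD values being higher; the log2 change was 0.38 (SE 0.19) at this probe and 0.54 (SE 0.25) at its other probe. Pmvk, the next kinase, had 4.09 and 4.51 on the HFD arrays, against 4.37 and 4.92 on the LFD arrays. Its diets overlapped, with a log2 change of -0.34 (SE 0.25). Mvd, which decarboxylates mevalonate diphosphate, had -0.23 and 0.38 on the HFD arrays, against -0.00 and 0.95 on the LFD arrays. Idi1, the isopentenyl diphosphate isomerase, had 2.03 and 2.22 on the HFD arrays, against 2.12 and 2.79 on the LFD arrays. Fdps, which makes farnesyl diphosphate, had 2.03 and 2.44 on the HFD arrays, against 1.54 and 2.53 on the LFD arrays. At their brightest probe all 3 overlapped between diets. A dimmer probe had both HFD values below both LFD values for Idi1 (log2 change -0.43) and Fdps (-0.53), neither of them called. In each of the 3 genes the lowest and highest LFD values were far apart at the brightest probe. The 95% confidence intervals of the log2 change were correspondingly wide, from -1.48 to 0.68 for Mvd, from -1.03 to 0.37 for Idi1 and from -0.83 to 1.23 for Fdps. The adjusted p of these 5 genes lay between 0.240 and 0.733.

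None of the 10 enzymes from squalene to cholesterol was called, beside 11.4% of all tested genes called in either direction. So few genes cannot be set apart from that background. Sqle, the squalene epoxidase and a control point of the pathway, had 0.89 and 1.31 on the HFD arrays, against 1.19 and 1.93 on the LFD arrays. The diets overlapped and the log2 change was -0.46 (SE 0.31, adjusted p = 0.341). Tm7sf2, a sterol reductase, had 1.48 and 1.42 on the HFD arrays, against 1.82 and 1.87 on the LFD arrays. It was even within each diet, and its change of -0.40 (SE 0.09) missed the threshold (adjusted p = 0.0692) but passed with median scaling (0.0495), with probes measured on all 4 arrays only (0.0434) and with the trend and robust options (0.0240). Sc5d, which introduces a double bond in the sterol ring, had 3.59 and 3.90 on the HFD arrays, against 3.92 and 4.68 on the LFD arrays, the upper HFD value lying just under the lower LFD value. Ebp, the sterol isomerase, had higher values in HFD, with 4.68 and 4.87 on the HFD arrays, against 4.43 and 4.56 on the LFD arrays. Neither was called (log2 change -0.56, SE 0.30, for Sc5d and 0.28, SE 0.12, for Ebp). At their brightest probe 7 of the 10 enzymes overlapped between diets, Sqle and the 6 remaining ones, whereas 68.9% of all tested genes did not. A dimmer Nsdhl probe had both HFD values below both LFD values (log2 change -0.76, not called).

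Lss, which closes the sterol ring to lanosterol, had 0.57 and 0.53 on the HFD arrays, against 0.32 and 0.999 on the LFD arrays. Cyp51, which begins the demethylation of lanosterol, had -0.16 and 0.05 on the HFD arrays, against -0.22 and 0.47 on the LFD arrays. In both, the HFD values lay between the LFD values. Msmo1, an oxidase that acts on the next methyl groups, had 3.29 and 3.47 on the HFD arrays, against 3.26 and 3.61 on the LFD arrays. Nsdhl, the dehydrogenase of the same steps, had 0.79 and 0.81 on the HFD arrays, against 0.46 and 1.12 on the LFD arrays. Again the LFD values enclosed those of HFD. Hsd17b7, the ketoreductase of these steps, had 0.05 and 0.22 on the HFD arrays, against -0.54 and 0.15 on the LFD arrays. Dhcr7, which makes cholesterol from 7-dehydrocholesterol, had 2.61 and 2.96 on the HFD arrays, against 2.31 and 2.92 on the LFD arrays. For these last enzymes the upper HFD value was above both LFD values and the lower one was not. The log2 changes of the 6 enzymes ran from -0.18 for Cyp51 (95% confidence interval -0.90 to 0.54) to 0.33 for Hsd17b7 (-0.37 to 1.04).

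**Figure D3:**
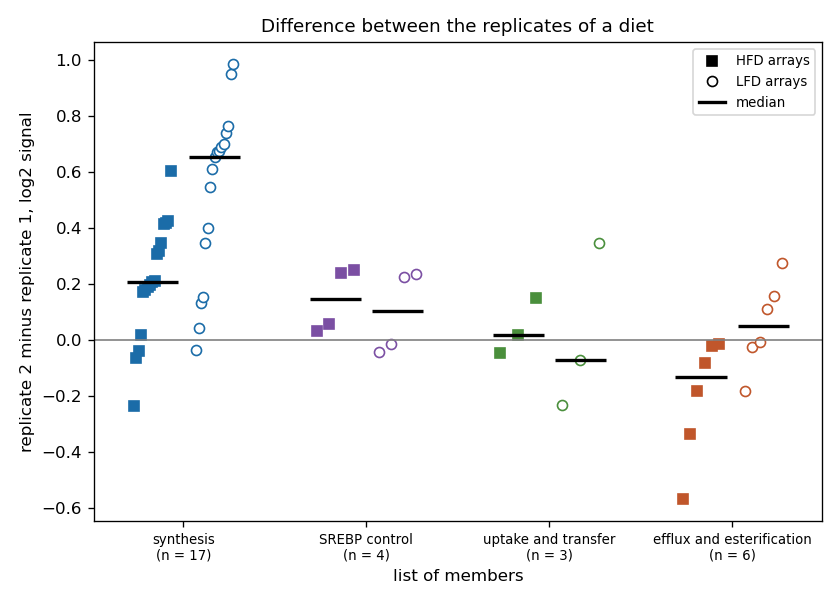
Log2 signal of replicate 2 minus that of replicate 1 for each gene, by list, with squares for the HFD arrays and open circles for the LFD arrays. Black bars are medians. The synthesis genes stand above 0 on the LFD arrays, with a median of 0.65, and less so on the HFD arrays, with a median of 0.21.

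The synthesis genes differed widely between the 2 LFD samples. LFD replicate 2 was above LFD replicate 1 for 16 of 17 enzymes, with a median gap of 0.65 on the log2 scale, whereas 59.6% of all tested genes were higher on replicate 2 and their median gap was 0.05. The widest gaps were 0.99 for Fdps and 0.95 for Mvd, and the exception was Hmgcs1 with -0.04. Tm7sf2 (0.04), Ebp (0.13) and Fdft1 (0.15) also had small gaps. HFD replicate 2 was above HFD replicate 1 for 14 of 17, with a median gap of 0.21, against 56.3% of all tested genes and a median of 0.02. The 6 efflux and esterification genes had median gaps of -0.13 in HFD and 0.05 in LFD. This order of replicates was noticed in the data and carries no test, and the 2 samples of a diet have no order of their own.

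The sign of the list's median depended on which LFD array was used. With LFD replicate 1 left out, the median log2 change of the synthesis genes was -0.42, and with LFD replicate 2 left out it was 0.17. It was -0.08 without HFD replicate 1 and -0.14 without HFD replicate 2. The calls among synthesis genes were lost in these 4 fits, as were most calls over all tested genes. Adipocyte markers were also higher on the second array of each diet, in 10 of 10 genes in HFD and in 10 of 10 in LFD, with median gaps of 0.07 and 0.17. Macrophage markers were higher there in only 3 of 14 genes in each diet, with median gaps of -0.10 in HFD and -0.14 in LFD. The part of either cell type in the spread of the synthesis genes was not tested.

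The upstream sequence of Hmgcs1, from RefSeq at chr13:119690101-119690350 of GRCm38.p6, plus strand, is shown. It alone among the members that have an entry held the sterol regulatory element searched for. That element, to which SREBPs bind, was searched on both strands as TCACNCCAC, where N is any base. The capitals mark it and 3 CCAAT boxes.
Hmgcs1: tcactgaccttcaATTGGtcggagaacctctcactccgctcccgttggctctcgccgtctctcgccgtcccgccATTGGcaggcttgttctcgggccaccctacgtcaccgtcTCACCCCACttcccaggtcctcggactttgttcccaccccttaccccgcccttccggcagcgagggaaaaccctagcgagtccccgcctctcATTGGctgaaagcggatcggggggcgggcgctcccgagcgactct
The element lies on the plus strand and ends 129 bases before the start. No motif matches overlap in the sequences shown. It occurs before 1.22% of all genes in the table, and before 1 of the 24 members that have an entry. CCAAT, the site of NF-Y, which acts beside SREBPs at many sterol genes, was found before all 14 synthesis genes with an entry, and before 37.5% of all genes in the table. A gene with several annotated starts was counted if any of its windows held the motif. An E-box was found before 3 of these 14 genes, against 6.86% of all genes. These matches describe the letters present and are not evidence of binding in these samples.

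**Figure D4:**
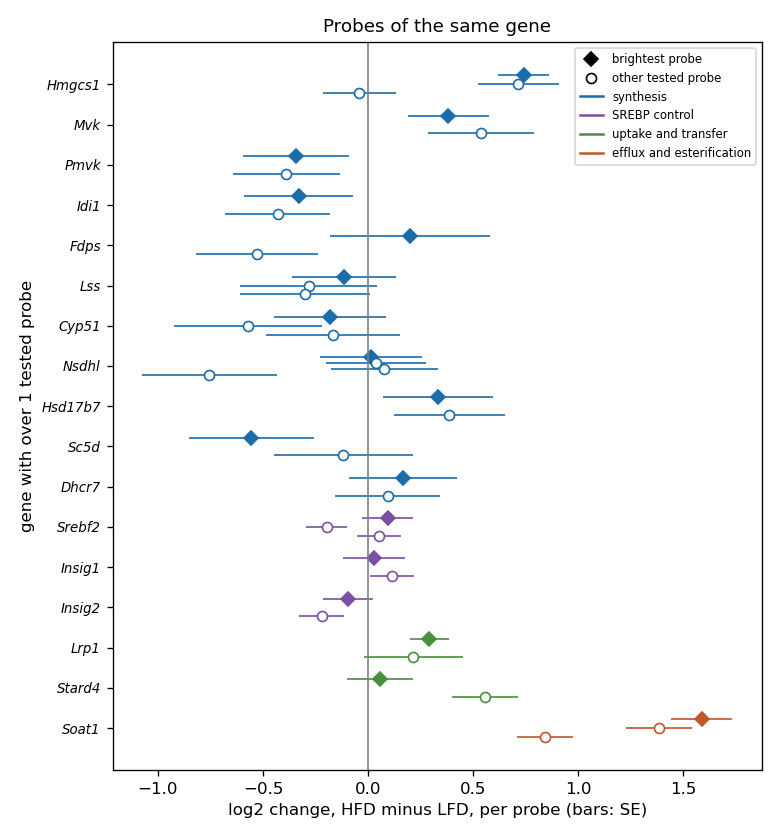
Log2 change, HFD minus LFD, of every tested probe of the 17 genes that have several, with its SE. Diamonds are the brightest probe of a gene and circles the others. The 3 Soat1 probes all lie to the right of 0, and Hmgcs1, Fdps, Nsdhl and Srebf2 have probes on both sides of it.

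Several probes were tested for 17 of the genes; all probes of a gene had the same sign for 13 of them and not for 4, as the plot of single probes shows. Those 4 were Hmgcs1, Fdps, Nsdhl and Srebf2. Nsdhl had changes of 0.01, 0.04 and 0.08 at 3 probes and of -0.76 (SE 0.32, adjusted p = 0.183) at the fourth. Fdps had 0.20 at its brighter and -0.53 at its dimmer probe, which was well above background on 1 of 2 HFD arrays. Srebf2 had 0.09, 0.05 and -0.20 at its 3 tested probes.

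Further genes of the pathway, listed by function beside the members, were also chosen with earlier results of these data known. Of 29 tested, 7 were higher in HFD and 0 lower in limma, where 4 had an unadjusted p under 0.05 in the lower direction. Most of the calls were genes of uptake and transport, 5 of 11, against 5.75% of all genes. Among them were the lysosomal lipase Lipa (2.51-fold, adjusted p = 0.0266), which frees cholesterol from lipoprotein esters, the receptor Vldlr (1.72-fold), the late endosomal protein Stard3 (1.48-fold) and the lysosomal sterol carrier Npc2 (1.43-fold, adjusted p = 0.0495). Lipa had 2.11 and 1.70 on the HFD arrays, against 0.60 and 0.56 on the LFD arrays, with no overlap. Ch25h, which makes 25-hydroxycholesterol, rose 1.70-fold (adjusted p = 0.0445). None of the 6 tested genes of SREBP control was called, beside 11.4% of all tested genes called in either direction. Mbtps2, Apoa1 and Soat2 were below the filter and were not tested. With an array left out, most of the 7 calls were lost, as were most calls over all tested genes.

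Markers of other cell types differed on the same arrays. All 9 mesothelium markers were lower in HFD, against 5.61% of all tested genes. The smallest p-values were those of Krt18 (6.58-fold) and Muc16 (3.30-fold). The list had a summed signal of 13.5 and 10.7 on the HFD arrays, against 39.2 and 41.1 on the LFD arrays. Of 4 tested epithelial markers 3 were lower, Krt5 among them (10.8-fold), against 5.61% of all tested genes. The 4 summed to 0.41 and 0.42 in HFD, against 2.18 and 2.42 in LFD. Both HFD arrays held Cdh1 at a level not well above background, and another of the 3 was well above background on 1 of 2 HFD arrays. Both markers passed the filter only through the LFD arrays, where they were high, so their lower calls are no independent support. Epcam and Krt15 were not tested. The 7 endothelium markers held no call, beside 11.4% of all tested genes called in either direction. Their signal summed to 29.8 and 32.6 in HFD, against 35.6 and 33.7 in LFD. Adipocyte markers summed to 1427 and 1535 in HFD, against 1504 and 1649 in LFD. Of 10, 1 was called, Retn, which was 1.87-fold lower, a share near the 11.4% of all tested genes. The markers did not move as 1 group: their log2 changes ran from -1.28 to 2.18, positive for 4 and negative for 6. The part of these cell types in the values of Fdft1 and the other members was not tested.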

How the data were processed

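The authors deposited linear intensity values as 1-colour Agilent scanner output, 1 file per sample. Per the file headers, Feature Extraction 11.0.1.1 (11.5.1.1 per the submitters' processing notes) subtracted background and detrended each array without scaling between arrays; all 4 arrays lay on 1 slide in 1 scan. Per the labels, 500 ng of RNA was labelled. The deposited value table holds a linear ratio of the processed signal to the array's 75th percentile. Its column medians were 0.130, 0.131, 0.117 and 0.127 for HFD replicates 1 and 2 and LFD replicates 1 and 2; it is uncentred and runs with signal.

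Control spots and spots flagged as outliers were left out, spots of a probe were averaged, and no spot was saturated. Signals were divided by the 75th percentile over the non-control spots of their array and put on a log2 scale. The test was that of limma 3.58.1 (under R 4.3.3; lmFit and eBayes, two-sided, 2 residual and 2.24 prior degrees of freedom), adjusted over all tested probes. With 2 arrays per diet a permutation test could not give a p below 0.333. Symbols were updated through transcript accessions of a RefSeq table on GRCm38.p6 (27668 of 41174 probes matched); the members kept the files' names, and no annotation of exons in mm9 was used. The replicate numbers of the labels pair nothing that the labels state. The procedure was tested on simulated data.

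All 30 members are named; other pathway genes are named if called with diets apart, apart from some that are counted but not reported here by name, and up to 2 markers per list by smallest adjusted p, with ties broken by the unadjusted p. Gene lists and members were chosen with earlier results of these data known. Promoter entries existed for 24 of 30 members. Fdft1, Sqle, Fdps, Stard4, Scarb1 and Abcg1 had none and were not searched for motifs. The alternatives were normexp (offset 50), quantile and median scaling, the value table, other filters, flagged spots kept, gene means, trend and robust eBayes, a replicate block, and each array left out.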

Additional observations from a re-analysis of the deposited data

How the results depend on the processing

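Abcg1, Pltp, Soat1 and Fdft1 passed the threshold in limma under 9 of 10 alternatives that kept all 4 arrays. The value table and the fit with flagged spots kept gave the same 1019 higher and 995 lower calls over all genes as the main fit. They therefore add little to the 9. Where dim probes were kept, 0 genes passed in either direction, the members included (adjusted p of 0.107 to 0.151 for the 6 called), although 3384 higher and 2224 lower genes, and 4 efflux genes and 10 other pathway genes that were higher, had an unadjusted p under 0.05. That setting tests more probes, and the median of all genes was 0.20 there. Over all genes, higher calls numbered 1618 with normexp, 1598 with probes measured on all 4 arrays and 1826 with trend and robust eBayes, which gave 1808 lower. Synthesis calls were 0 higher with median scaling, with the probes of a gene averaged or with no filter, and 2 lower with median scaling, with probes measured on all 4 arrays or with trend and robust eBayes, by the gain of Tm7sf2. Among other pathway genes 1 was lower with normexp, quantile or median scaling, with probes measured on all 4 arrays or with trend and robust eBayes, and 3 were higher with median scaling. Median scaling gave a list median of -0.091 for SREBP control and -0.024 for other pathway genes, which was 0.14 with no filter. Mean of probes gave 0.25 for uptake and transfer. The median of all genes was -0.067 with median scaling, against 0.021 in the main fit. The cause of these shifts was not tested.

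The replicate block is not a pairing that the labels state: the correlation of the replicates' deviations between diets was -0.014 over 17736 genes. With the replicate block 220 genes were higher and 208 lower, 0 synthesis genes and 0 other pathway genes were higher, and Hmgcs1 (adjusted p = 0.0687) and Nceh1 (0.0562) did not pass. Nothing was run with the slide as a block, since all arrays share 1 slide.

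Leaving out each array in turn left 9 to 470 higher and 9 to 341 lower genes, 0 synthesis calls, 0 to 2 higher efflux genes and 0 to 1 other pathway genes in each direction. The lone array of a diet is then assumed to vary like the other diet's. List medians lay between -0.42 and 0.17 for synthesis, -0.079 and 0.074 for SREBP control, -0.019 and 0.23 for uptake and transfer, 1.42 and 1.63 for efflux, and 0.082 and 0.14 for other pathway genes. Signs turned only for genes that were not called. Leaving out arrays, log2 changes ran from -0.88 to 0.077 for Mvd, -0.67 to 0.0072 for Idi1, -0.29 to 0.69 for Fdps, -0.45 to 0.22 for Lss, -0.53 to 0.17 for Cyp51, -0.23 to 0.12 for Msmo1, -0.31 to 0.34 for Nsdhl, -0.012 to 0.68 for Hsd17b7, -0.14 to 0.47 for Dhcr7, -0.026 to 0.21 for Srebf2, -0.10 to 0.15 for Insig1, -0.21 to 0.019 for Insig2, -0.21 to 0.018 for Scarb1, -0.12 to 0.23 for Stard4 and -0.077 to 0.080 for Abca1. Normexp gave -0.064 for Nsdhl, -0.021 for Insig1, -0.0047 for Stard4 and -0.019 for Abca1. Quantile gave -0.015 for Nsdhl, -0.031 for Insig1 and -0.093 for Abca1. Median scaling gave -0.074 for Nsdhl, -0.060 for Insig1, -0.032 for Stard4 and -0.087 for Abca1. The mean of probes gave -0.17 for Fdps, -0.16 for Nsdhl and -0.018 for Srebf2. With 2 arrays per diet and 2 residual degrees of freedom, small changes of dim probes such as those of Lcat were not detectable.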
